A study of Mus musculus with 8 samples.

Results

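Gene expression in the epididymal fat of obese mice given an angiotensin receptor blocker was compared with that of obese mice given no drug. Of the 8 arrays of the series, 6 entered this comparison: 4 from drug-treated mice, 2 on telmisartan and 2 on candesartan, and 2 from untreated mice on the high-fat diet (HFD). The arrays were chosen by the treatment in their labels, with no measured value involved. Both drugs were pooled, with equal weight, to look for what they shared. A gene was counted as one-sided where all 4 drug arrays lay above, or all 4 below, both HFD arrays. The 2 chow arrays entered the model as a group of their own, which added to the estimate of spread, and are given as a reference level.

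Angiotensin II is cut from angiotensinogen by renin and then angiotensin-converting enzyme, and it raises blood pressure mainly through its type 1 receptor, encoded in mice by Agtr1a and Agtr1b. Fat is itself a source of angiotensinogen, and the receptor is found on adipose stromal and vascular cells. Telmisartan and candesartan both block this receptor. Each carries a benzimidazole on a biphenyl, with a carboxylic acid on the biphenyl of telmisartan and a tetrazole on that of candesartan. Telmisartan is also known as a partial agonist of PPARγ, the nuclear receptor that drives fat cell differentiation and lipid storage.

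All mice were male C57BL/6J, bought at 6 weeks of age. Chow mice ate a diet with 10% of its calories as fat, and the other 3 groups an HFD with 30%, for 24 weeks. HFD mice were then randomized to telmisartan (HFD+Tel), candesartan (HFD+Can) or no drug (HFD) for a further 5 weeks, each drug at about 3 mg/kg/day in the drinking water. There were 2 mice a group and 1 array a mouse. The whole fat pad was used, so each value is a mixture of fat cells and all other cells of the tissue. The fat cell marker Adipoq was bright on all 8 arrays (15423 to 18324 in scaled signal units). The macrophage markers Csf1r, Cd68, Mrc1 and Adgre1 spanned 5283 to 9329, 1089 to 6415, 1085 to 3177 and 620 to 3503. Itgam, another macrophage marker, was dimmer, at 104 to 298. By contrast, 4 markers of epididymis and testis lay between 6.69 and 44.7, the lower value being the floor. The trimmed mean signal of an array before scaling was 178 to 265, and ratios of 3' to 5' probe sets were alike across arrays (1.18 to 1.22 for actin). Both arrays of a group were not equally alike in all groups. Over the genes tested, the log2 difference between both telmisartan arrays had an SD of 0.484 and that between both chow arrays 0.445. It was 0.273 for HFD and 0.314 for candesartan. On the first principal component telmisartan mouse 1 lay at −2.99, between the chow arrays and the other drug arrays. Telmisartan mouse 2 lay at 26.0, furthest from the chow arrays. Medians of gene lists are given with their range on leaving out 1 of the 6 HFD and drug arrays, and the printed difference of a single gene is given without telmisartan mouse 1 where it turned sign or moved by over 1.5 times.

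With limma, 0 of 11232 genes (0%) passed an adjusted p of 0.05 for drug against HFD, and the smallest adjusted p was 0.999. An unadjusted p under 0.05 was found for 301 genes, 116 with higher means under the drugs (1.03% of those tested) and 185 with lower means (1.65%), fewer than the 562 that this level would pass among unchanged genes. The differences were small. For the median gene the 95% interval extended 0.38 on the log2 scale either way, and for 10297 genes (91.7%) the interval lay wholly within 2-fold either way. For 6922 genes (61.6%) it lay within 1.5-fold. No difference below is therefore shown beyond the spread between mice, and the counts and values are a description of these 6 arrays. An exact permutation test of 4 arrays against 2 cannot give a two-sided p under 0.133.

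All 4 drug arrays lay above both HFD arrays for 776 genes (6.91%) and below them for 721 genes (6.42%), which together make 13.3% of the genes tested. Of these one-sided genes, 15 of the higher and 70 of the lower differed in mean by over 1.5-fold, and 2 and 9 by over 2-fold. The balance of both directions depended on how the arrays were scaled. It was 776 above against 721 below with a common trimmed mean, 968 against 554 with quantile normalization, 1172 against 425 with median centring and 36 against 865 with the signals as deposited, where the median over all genes shifted by −0.11 on the log2 scale. At the boundary, Mrpl3 was just inside, with a margin of 9.78e-05 on the log2 scale between the lowest drug array and the higher HFD array, and Rims4 just outside, at −1.89e-05. On the lower side the margin was 4.73e-05 for Prr13, just inside, and −2.01e-05 for Lrrc45, just outside.

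**Figure D1:**
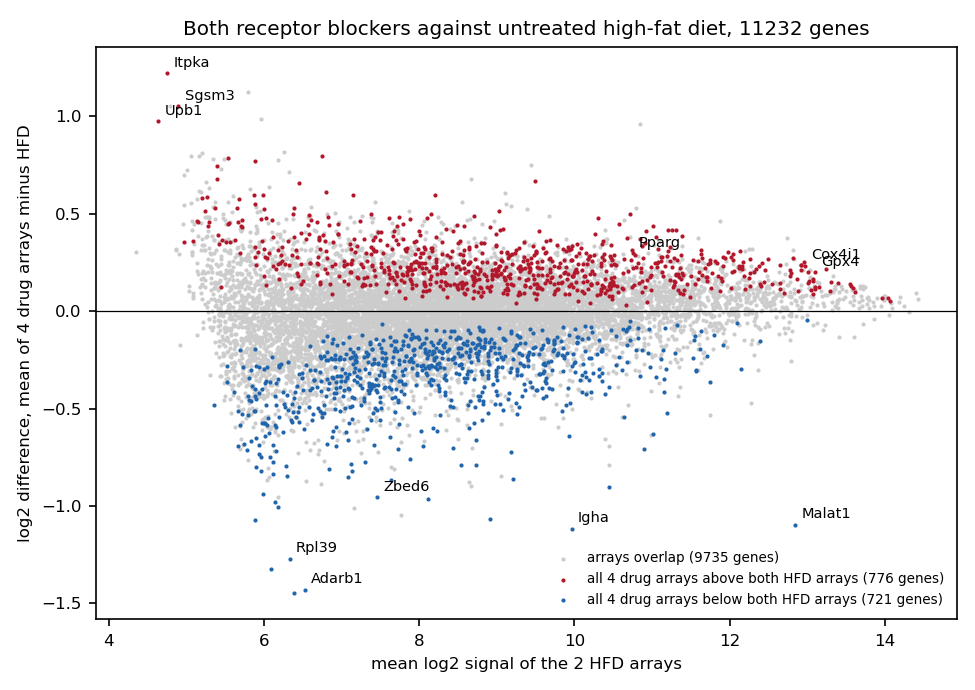
Each point is 1 of 11232 genes, with the mean log2 signal of the HFD arrays on the horizontal axis and the log2 difference of the drug mean from HFD on the vertical axis. Red points (776) have all 4 drug arrays above both HFD arrays and blue points (721) all 4 below; the blue points spread further from 0 and sit more to the left.

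One-sided genes of opposite direction differed in brightness. Genes above had a median HFD signal of 535, genes below 277 and all genes tested 323. In the dimmest 25% of genes 3.77% were above and 7.80% below, whereas in the brightest 25% 11.9% were above and 3.92% below. The part of signal level in the direction of single genes was not tested. Other probe sets of the same gene give a second reading from the same RNA. For genes above, 87 of 521 such probe sets (16.7%) were also above and 36 (6.91%) were below. For genes below, 176 of 704 (25%) were also below and 7 (0.994%) were above. Over all genes the other probe sets were above in 3.99% and below in 12.6%.

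In the renin-angiotensin system itself, 0 of 11 genes tested were one-sided, against 13.3% of all genes. A list this short cannot show by that count that the system was unchanged. The list's median difference was −0.092, against −0.0062 over all genes. Leaving out 1 array gave medians of −0.17 to −0.011, and with unscaled signals 1 member was below. The blocked receptor, Agtr1a, had a signal of 476 and 396 on the HFD arrays, 338 and 413 with telmisartan and 339 and 397 with candesartan. These overlap, and the log2 difference from the mean of HFD to the mean of the 4 drug arrays was −0.23 ± 0.15 (SE, as in all values after ±) with a 95% interval of −0.56 to 0.10. Angiotensinogen (Agt), the precursor of the hormone, read 391 and 366 on HFD, 779.8 and 345 with telmisartan and 412 and 421 with candesartan, beside 1093 and 2482 on chow. Only telmisartan mouse 1 stood clearly above HFD, and the difference of 0.30 ± 0.37 was 0.003 without that mouse. For the converting enzyme Ace the signals were 491 and 749.7, 427 and 564 and 519 and 494 in the same order, a difference of −0.28 ± 0.21 that became 0.022 without HFD mouse 2 and −0.18 without telmisartan mouse 1.

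Within the same list, the widest difference was in mast cell chymase (Cma1), which can also form angiotensin II. It read 209.7 and 415 on HFD, 129 and 147 with telmisartan and 279 and 326 with candesartan. Only the telmisartan mice lay below both HFD mice, and the difference from HFD was −1.10 for telmisartan and 0.032 for candesartan. The median of the 6 tested mast cell genes was −1.22 on telmisartan mouse 1 and −0.17 to −0.11 on the other 3 drug arrays. Of these 6, Gata2, a transcription factor shared with other blood lineages, alone was below on all drug arrays (16.7%, against 6.42% of all genes). It read 166 and 162 on HFD, 144 and 154 with telmisartan and 141 and 150.1 with candesartan, and its dimmer probe set overlapped. The number below was 0 with quantile normalization or median centring and 2 with unscaled signals. In whole tissue, fewer cells of a type and less RNA per cell cannot be told apart. The aminopeptidases Anpep and Enpep and the prorenin receptor Atp6ap2 had differences of −0.33 ± 0.27, 0.066 ± 0.13 and 0.019 ± 0.10, or −0.09, −0.019 and 0.031 without telmisartan mouse 1.

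**Figure D2:**
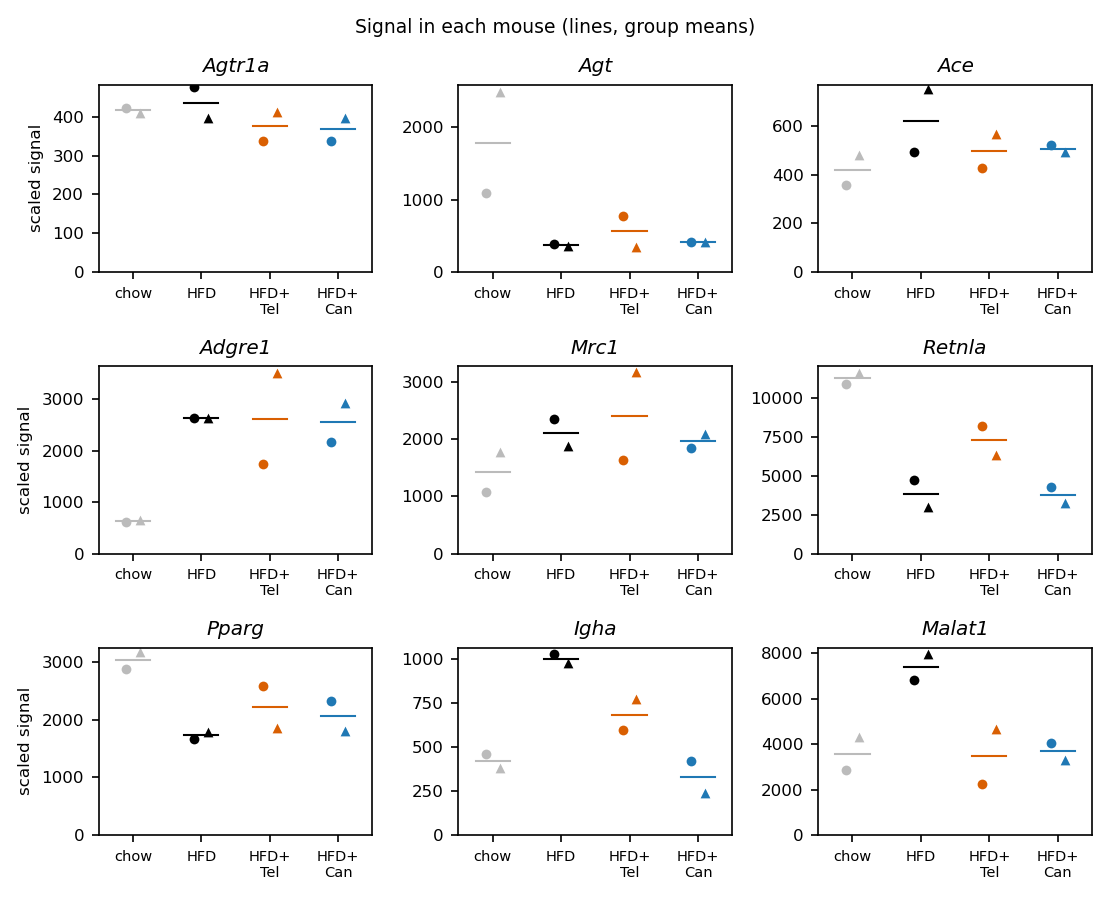
Scaled linear signal of 9 genes in each mouse, with circles for mouse 1, triangles for mouse 2 and a line at the group mean. Igha and Malat1 lie below both HFD mice in all 4 drug-treated mice and Pparg above them, while Agtr1a, Agt, Ace, Adgre1, Mrc1 and Retnla overlap.

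Genes that angiotensin II is known to induce had a median difference of −0.15 over 19 members, and 0.0035 without telmisartan mouse 1 (range −0.22 to 0.0035 on leaving out 1 array). Of the 19, 3 (15.8%, against 6.42% of all genes) were below on all drug arrays and 0 above: Junb, Egr2 and Hbegf. The number below was 1 with quantile normalization and 2 with median centring or unscaled signals. Junb, a subunit of the AP-1 transcription factor, read 433 and 469 on HFD, 242 and 414 with telmisartan and 299.8 and 368 with candesartan. Egr2, an early growth response factor, read 502 and 525, 276 and 439 and 348 and 499.9 in that order. In both genes telmisartan mouse 2 and candesartan mouse 2 lay closer to HFD than mouse 1 of either drug. The differences were −0.48 ± 0.25 for Junb and −0.43 ± 0.24 for Egr2, with both intervals reaching past 0, and without telmisartan mouse 1 they were −0.28 and −0.26. The other probe set of Egr2 overlapped, with a difference of −0.23. Egr2 was one of the genes that the diet moved most: it read 59.6 and 85.4 on chow, a rise of 2.85 on the log2 scale with the HFD (limma adjusted p = 0.0011). In that contrast 578 genes (5.15%) were called higher and 331 (2.95%) lower.

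Immediate early genes, transcribed within minutes of a stimulus, form a wider set that overlaps with this one. Of 19 tested, 6 (31.6%, against 6.42% of all genes) were below on all 4 drug arrays (Klf2, Jund, Ier3, Junb, Btg2 and Egr2), 0 were above, and the median was −0.24. By scaling, the numbers below were 4 with quantile normalization, 3 with median centring, which also put 1 above, and 4 with unscaled signals. Array by array, the median against HFD was −0.58 and −0.12 for telmisartan and −0.52 and 0.058 for candesartan. The median was thus furthest below HFD in mouse 1 of each drug and slightly above it in candesartan mouse 2. Leaving out candesartan mouse 1 gave a median of −0.15, and leaving out candesartan mouse 2 gave −0.48. Klf2, a factor induced by flow in endothelium, had the smallest p of the list. Its signals were 1143 and 1229 on HFD, 711 and 929.7 with telmisartan and 996 and 943 with candesartan, a difference of −0.42 ± 0.15 (95% interval −0.76 to −0.074), and its groups did not overlap. Fos itself overlapped fully, at 2397 and 2655 on HFD, 1693 and 2650.3 with telmisartan and 1407 and 3255 with candesartan.

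Genes of the respiratory chain and TCA cycle were the list with the largest share of one-sided members. Of 33 tested, 19 (57.6%, against 6.91% of all genes) lay above HFD on all 4 drug arrays and 0 below, and 32 of 33 had a positive difference. The median was small, at 0.18 on the log2 scale, and 0.13 without telmisartan mouse 1 (range 0.12 to 0.26 on leaving out 1 array). Without that mouse 19 were again above, a count that cannot fall when an array is left out. The count above was 11 with quantile normalization, with 1 below, 19 with median centring and 1 with unscaled signals, where the list median was 0.081 against −0.11 for all genes. Many of these genes are bright, and 11.9% of the brightest 25% of all genes were above. The part of signal level in this count was not tested.

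Cytochrome c oxidase, the last complex of the chain, held several of the 19. Cox4i1 read 7745 and 8264 on HFD, 10175 and 9429 with telmisartan and 8926 and 9139 with candesartan, beside 10409.9 and 9293 on chow. For Cox5b the signals were 7444 and 6995, 10021 and 8795, 8125 and 8087 and 10636 and 8846. All 4 drug arrays of both genes lay between the HFD arrays and the brighter chow array. The differences were 0.23 ± 0.088 for Cox4i1 and 0.27 ± 0.10 for Cox5b, with unadjusted p-values of 0.0278 and 0.0281, and 3 of 3 other probe sets of Cox5b were above as well. Atp5o, a stalk subunit of ATP synthase, read 4625 and 4376 on HFD, 6449 and 5422 with telmisartan and 5152 and 5319 with candesartan, a difference of 0.31 ± 0.13. Cox8b, the subunit form typical of muscle and brown fat, had the largest difference of the list at 0.67 ± 0.44. It also had the widest spread, from 823 and 633 on HFD to 1234 and 1349 with telmisartan and 862 and 1203 with candesartan, and 1859 and 488 on chow.

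Genes of other complexes were also among the 19. For Uqcrc1 of complex III the signals were 2514 and 2470.2 on HFD, 3163 and 3104 with telmisartan and 2825 and 2961 with candesartan. Ndufs3 of complex I read 2601 and 2321, 3304 and 2718 and 2885 and 2644 in that order, and Ndufb8 3759 and 3651, 4800.2 and 4151 and 3904 and 4017. The latter were among 4 members lower on HFD than on chow in the test of the diet (log2 difference −0.56, adjusted p = 0.0491 for Ndufs3, and −0.53, adjusted p = 0.0355 for Ndufb8). Sdhb of complex II and citrate synthase (Cs), which opens the TCA cycle, differed from HFD by 0.17 ± 0.12 and 0.20 ± 0.17. Sdha, the catalytic subunit of complex II, was the single member with a negative difference, −0.0072 ± 0.11, or −0.041 without telmisartan mouse 1. Across the list telmisartan mouse 1 lay furthest from HFD: the median was 0.35 on that array and 0.10, 0.15 and 0.12 on telmisartan mouse 2 and candesartan mice 1 and 2.

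**Figure D3:**
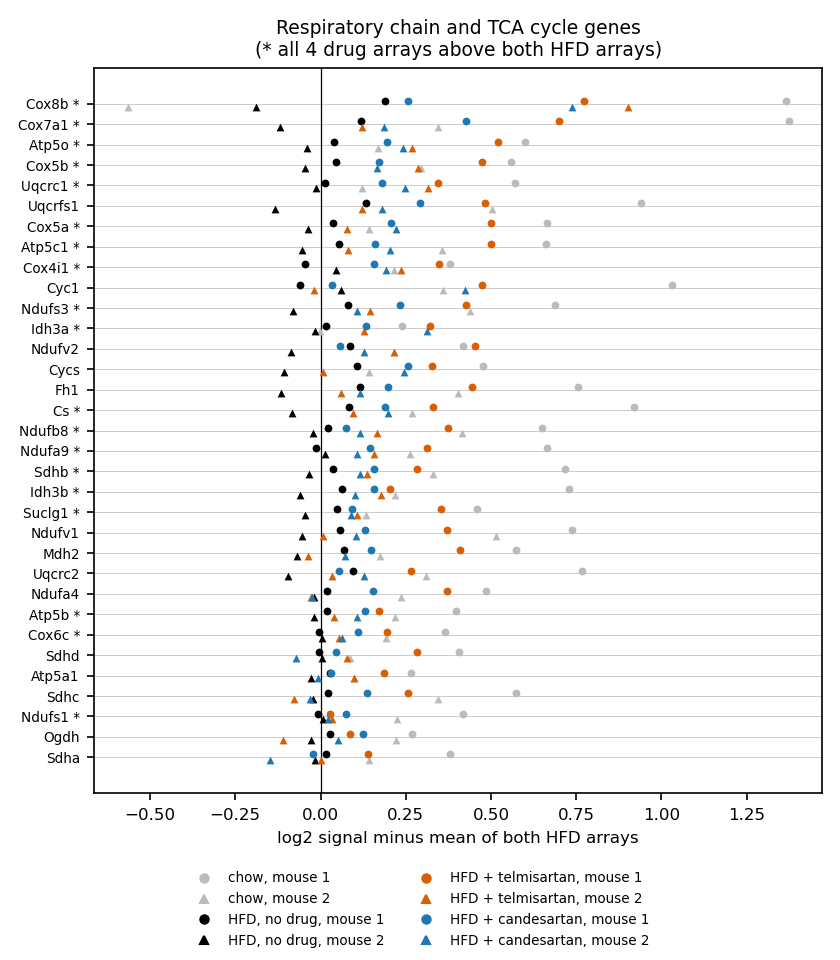
Log2 signal of the 33 respiratory chain and TCA cycle genes on each array, relative to the mean of both HFD arrays (vertical line), ordered by the mean difference under the drugs. Starred genes (19) have all 4 drug arrays right of both HFD arrays; telmisartan mouse 1 is the rightmost drug array for most genes, and chow mouse 1 lies further right still.

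Among 22 fatty acid oxidation genes, 7 (31.8%, against 6.91% of all genes) were above on all drug arrays and 0 below. The median was 0.15, and 0.10 without telmisartan mouse 1 (range 0.10 to 0.19 on leaving out 1 array). The 7 were Etfb, which passes electrons from acyl-CoA dehydrogenases, the carnitine carrier Slc25a20, Cpt2, Acadl, Hadh, Ehhadh and Acadvl. Etfb read 3953 and 3937 on HFD, 5456 and 4290.1 with telmisartan and 5000.3 and 4442 with candesartan. For Slc25a20 the signals were 1376 and 1105, 1881 and 1448 and 1496 and 1699. Groups did not overlap for either gene, and the differences were 0.28 ± 0.12 and 0.40 ± 0.21. With quantile normalization 4 of the 22 were above, with median centring 9 and with unscaled signals 0.

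Of 25 lipid synthesis genes, 9 (36%, against 6.91% of all genes) were above and 1 (4%, against 6.42%) below. The median was 0.21, or 0.12 without telmisartan mouse 1 (range 0.12 to 0.30). With quantile normalization the counts were 5 and 0, with median centring 10 and 1, and with unscaled signals 0 and 1. Lpin1, the phosphatidate phosphatase of triglyceride synthesis, had the smallest p. It read 2206 and 2125 on HFD, 3128 and 2373 with telmisartan and 2687 and 2686 with candesartan, a difference of 0.32 ± 0.13 (95% interval 0.029 to 0.61), and its other probe set was also above. Dgat1, which makes triglyceride from diglyceride, read 2643 and 2464, 3579 and 3018 and 2899.9 and 2813, a difference of 0.26 ± 0.12. Its dimmer second probe set lay below HFD on all 4 drug arrays, so both readings of Dgat1 disagree in direction. Thrsp, a lipogenic protein of fat, read 5749 and 5817 on HFD, 8055 and 6007 with telmisartan and 7110.4 and 6823 with candesartan. On chow it stood at 15435 and 13413, and the drug arrays covered a small part of that gap. Fatty acid synthase (Fasn), acetyl-CoA carboxylase (Acaca), Acly, Agpat2, Slc25a1 and malic enzyme (Me1) were above by 0.20 ± 0.14, 0.26 ± 0.18, 0.28 ± 0.24, 0.25 ± 0.18, 0.26 ± 0.27 and 0.21 ± 0.27. Without telmisartan mouse 1 the values for Fasn, Acly and Me1 were 0.10, 0.17 and 0.12. Fads2, a desaturase, was the member below, at 152 and 176 on HFD, 130.3 and 134 with telmisartan and 124 and 137 with candesartan.

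In cholesterol synthesis, 3 of 15 genes (20%, against 6.91% of all genes) were above (Fdps, Mvd and Nsdhl) and 1 (6.67%, against 6.42%) below (Srebf2). With unscaled signals 0 were above. The median of 0.21 was 0.054 without telmisartan mouse 1 (range 0.054 to 0.33). Fdps, which makes farnesyl pyrophosphate, read 1709.7 and 1562 on HFD, 3159 and 1783 with telmisartan and 1988 and 1816 with candesartan. Srebf2, the transcription factor that drives this pathway, read 280.3 and 271, 214 and 229 and 225 and 240.1. By this reading its level was on the other side from 14 of the list's genes, which had positive differences. The other probe set of Srebf2 overlapped, with a difference of 0.032, so the opposite direction rests on 1 probe set.

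Of 16 genes that mark fat cells Pparg alone was one-sided, a share (6.25%) near the 6.91% of all genes above. The number above was 0 with quantile normalization or unscaled signals and 2 with median centring. Pparg read 1659.8 and 1792 on HFD, 2580.1 and 1856 with telmisartan and 2325 and 1807 with candesartan, beside 2883 and 3175 on chow. Mouse 2 of either drug lay just above HFD and mouse 1 clearly above, and the difference of 0.30 ± 0.16 had an interval of −0.066 to 0.66 and was 0.18 without telmisartan mouse 1. The step down from chow to HFD passed the test (−0.81, adjusted p = 0.0333). Its target genes had a median of 0.11 over 15 members (range 0.064 to 0.12 on leaving out 1 array), with Dgat1 and the sterol receptor Nr1h3 above (13.3%) and 0 below. With unscaled signals 0 were above. The difference from HFD for Pparg was 0.34 with telmisartan and 0.25 with candesartan, and both share the HFD arrays. Adipoq and Lep, the fat cell hormones adiponectin and leptin, differed by 0.058 ± 0.094 and 0.043 ± 0.16, or 0.0033 and −0.0098 without telmisartan mouse 1, and both turned negative with unscaled signals. The insulin-responsive glucose transporter Slc2a4 read 467 and 546 on HFD, 757 and 449 with telmisartan and 709.8 and 538 with candesartan. Its groups overlapped, and all 4 drug arrays were far below the chow level of 1615 and 1673. Of 16 insulin signalling genes, the receptor Insr was above, with a difference of 0.075 ± 0.16, and Grb14, an adaptor that inhibits it, below, with −0.22 ± 0.26, or −0.13 without telmisartan mouse 1. Each is 6.25% of the list, near the share of all genes.

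Clock genes, which set daily rhythms, had 5 of 16 members (31.2%, against 6.42% of all genes) below (Ciart, Hlf, Nr1d2, Per3 and Nr1d1) and 1 (6.25%, against 6.91%) above (Cry1). With quantile normalization, median centring and unscaled signals the numbers below were 4, 5 and 6, with 1 above in each. The sources used here give no hour of collection for any pad. Ciart, a repressor of the CLOCK and BMAL1 activators, read 63.4 and 70.1 on HFD, 43.9 and 40.7 with telmisartan and 46.4 and 52.2 with candesartan. Cry1, a repressor of the same activators, read 51.4 and 50.3, 73.5 and 80.0 and 70.7 and 57.1. These genes lay on opposite sides, by −0.55 ± 0.22 and 0.46 ± 0.21. Per3 read 269 and 312, 117 and 239.8 and 187 and 254 in the same order, and 2 of its 3 other probe sets were below too. Nr1d1, which encodes the haem-binding repressor REV-ERBα, read 609 and 713, 497 and 433 and 534 and 537.

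CLOCK and BMAL1 bind the E-box, CACGTG, which reads the same on both strands. The 250 bases before the annotated start of Ciart and of Cry1 are shown because both hold it and the genes lay on opposite sides of HFD. Sequences are from RefSeq on the GRCm38.p6 build, 5′ to 3′ along the gene, with each E-box in capitals.
Ciart, chr3:95882229-95882478, minus strand: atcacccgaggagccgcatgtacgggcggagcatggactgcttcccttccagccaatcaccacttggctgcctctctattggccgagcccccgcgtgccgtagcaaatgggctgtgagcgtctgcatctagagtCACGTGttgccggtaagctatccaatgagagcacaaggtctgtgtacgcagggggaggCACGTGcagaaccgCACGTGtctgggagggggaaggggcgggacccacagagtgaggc
Cry1, chr10:85185055-85185304, minus strand: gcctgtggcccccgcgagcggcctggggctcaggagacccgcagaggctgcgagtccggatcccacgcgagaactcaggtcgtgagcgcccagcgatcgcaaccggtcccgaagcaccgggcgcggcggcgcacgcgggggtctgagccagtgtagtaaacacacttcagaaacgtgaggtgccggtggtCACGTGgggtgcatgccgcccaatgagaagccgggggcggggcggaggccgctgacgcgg
Ciart holds 3 copies and Cry1 holds 1. The motif was found in 4 of the 14 clock genes with a listed promoter, of which Ciart was 1 of 5 below and Cry1 the 1 above. It stood in 790 of 9091 promoters of genes tested (8.69%) and in 6.05% of all 27025 listed. A match is a description of these letters and not of binding. Of 15 listed promoters of the respiratory genes above, 1 held the ETS motif CCGGAAG on either strand, against 14.1% of promoters of genes tested.

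**Figure D4:**
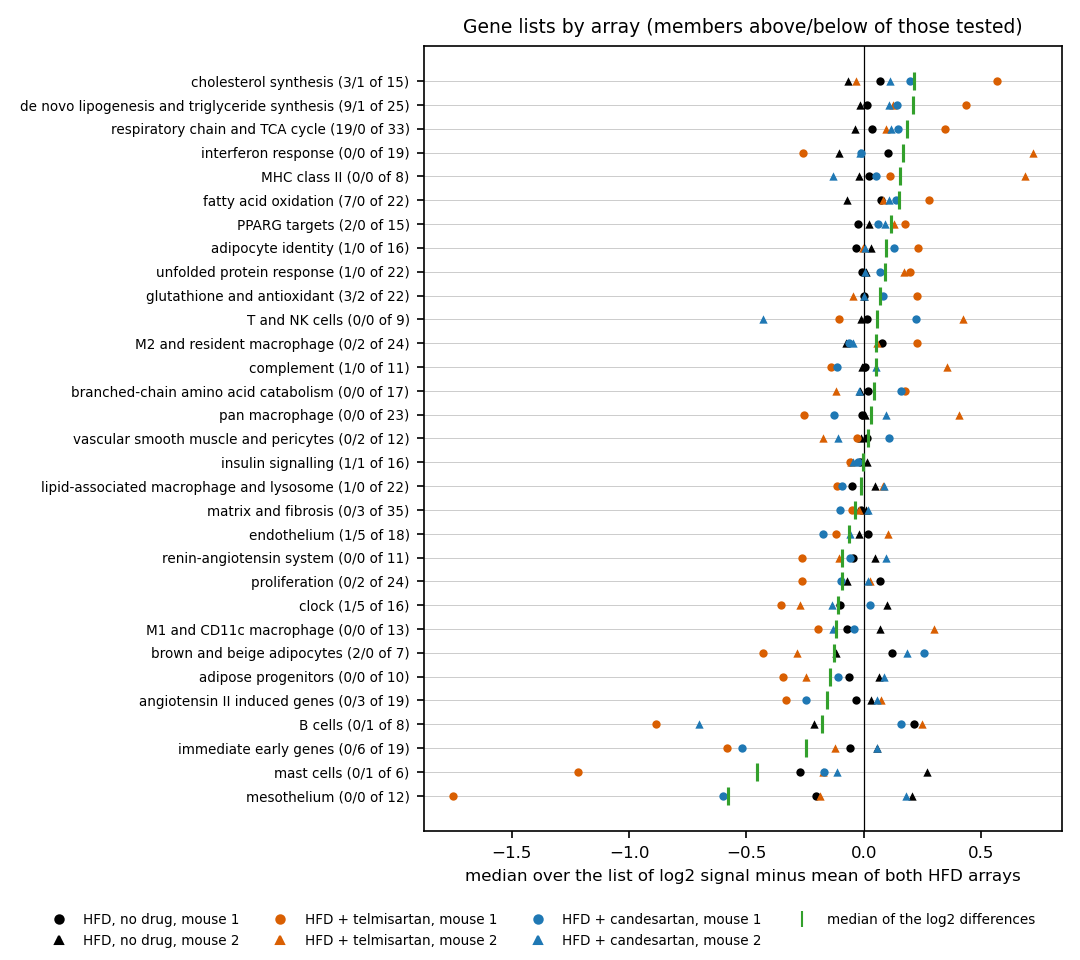
Median over each gene list of the log2 signal relative to the mean of both HFD arrays, for each HFD and drug array, with a green bar at the median of the members' mean differences. Figures in brackets give members above and below of those tested; telmisartan mouse 1 lies furthest from 0 for mesothelium, mast cells and lipid synthesis, and respiratory chain genes lie right of HFD on all 4 drug arrays.

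Macrophages gather in obese fat, and the series title names them. Of 23 general macrophage genes 0 were one-sided, against 13.3% of all genes. With 2 mice a group this count cannot show that the drugs left macrophages unchanged. The median of the list was 0.033 (range −0.15 to 0.18 on leaving out 1 array, with 0.18 without telmisartan mouse 1). On single arrays it was −0.25 and 0.41 for telmisartan and −0.13 and 0.10 for candesartan, so both mice of a drug lay on either side of HFD. Adgre1, which encodes the F4/80 antigen, read 2629 and 2632 on HFD, 1743 and 3503 with telmisartan, 2172 and 2935 with candesartan and 620.3 and 660.0 on chow. The difference was −0.075 ± 0.25 with an interval of −0.64 to 0.49, and it was 0.18 without telmisartan mouse 1. Of 13 genes of inflammatory (M1, CD11c+) macrophages 0 were one-sided, against 13.3% of all genes. Their median was −0.12, but 0.10 without telmisartan mouse 1 and −0.029 without HFD mouse 2, so its sign rested on 1 array. Itgax, which encodes CD11c, read 1559.9 and 1987 on HFD, 897 and 1469.9 with telmisartan and 1503 and 2106 with candesartan. Only the telmisartan arrays were both below HFD. The monocyte chemokine Ccl2 read 706 and 847, 838 and 727 and 651 and 488 in that order, with candesartan below and telmisartan overlapping.

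Among 24 genes of M2 and resident macrophages, Egr2 and Timd4 were below (8.33%, near the 6.42% of all genes) and 0 above. With quantile normalization 0 were below and 1 above, with median centring 1 and 1, and with unscaled signals 3 and 0. Retnla, an M2 marker, read 4699.7 and 3004 on HFD, 8221 and 6351 with telmisartan, 4280.1 and 3217 with candesartan and 10882 and 11626 on chow. Its pooled difference of 0.46 ± 0.20 averaged 0.94 for telmisartan and −0.018 for candesartan, and the test between the drugs gave an adjusted p of 0.924. Cd163, a scavenger receptor of resident macrophages, read 437 and 222, 587 and 475 and 317 and 379, a difference of 0.46 ± 0.29 that was −0.032 without HFD mouse 2. Retnla too was nearer to 0 without that mouse, at 0.14. The mannose receptor Mrc1 overlapped fully, at 2353 and 1877, 1634 and 3177 and 1849 and 2099.7, and the sign of its difference, 0.012 ± 0.28, turned with quantile normalization; it was 0.25 without telmisartan mouse 1. Timd4, a phosphatidylserine receptor of resident macrophages, was dim and read 40.3 and 41.4 on HFD, 30.0 and 31.6 with telmisartan and 31.3 and 24.7 with candesartan.

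Of 18 endothelial genes, 5 (27.8%, against 6.42% of all genes) were below (Egfl7, Kdr, Tek, Flt1 and Tie1) and Nos3 was above (5.56%, against 6.91%). The list's median was −0.063, with 0.0092 without telmisartan mouse 1 and −0.14 without HFD mouse 2. With quantile normalization and median centring the counts were 4 below and 1 above, and with unscaled signals 2 and 0. Kdr, the main VEGF receptor, read 264 and 306 on HFD, 208 and 231 with telmisartan and 219 and 217 with candesartan, beside 428 and 508 on chow. The difference was −0.38 ± 0.14 (95% interval −0.69 to −0.063), after a diet difference of −0.72 (adjusted p = 0.0314). Egfl7, a secreted endothelial protein, read 843 and 714, 441 and 587 and 667 and 607, and 2 of its 3 other probe sets were below. Flt1, the other VEGF receptor of the list, differed by −0.25 ± 0.15, with 3 of 3 other probe sets below. By contrast Nos3, endothelial nitric oxide synthase, read 832 and 799.7, 1255 and 882 and 989.7 and 850.4. Pecam1 and Cdh5, defining markers of endothelium, overlapped, at 756 and 687 and 353 and 350.0 on HFD and from 616 to 773 and from 324 to 441 on the drug arrays. In the cells that wrap vessels 2 of 12 genes were below (16.7%, against 6.42% of all genes) and 0 above, with a median of 0.016. The counts were 2 below and 1 above with quantile normalization or median centring, and 1 and 0 with unscaled signals. Notch3, a receptor of smooth muscle, read 377 and 367 on HFD, 304 and 316 with telmisartan and 312 and 301 with candesartan, and its dimmer probe set overlapped. Rgs5, a pericyte marker, read 3154 and 3114, 2735 and 2723 and 2906 and 2587, and 3 of 3 other probe sets were below.

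Of 35 matrix genes, 3 were below (8.57%, near the 6.42% of all genes) and 0 above: the thrombospondins Thbs1 and Thbs2 and the protease inhibitor Timp3. Thbs2 read 537 and 722 on HFD, 342 and 482 with telmisartan and 469 and 499 with candesartan, and its level on chow was 196 and 322. Of 2 dimmer probe sets of Thbs2, 0 were below. Thbs1 read 479 and 701, 324 and 345 and 351 and 384, and its chow arrays, 117 and 675, lay on both sides. The differences were −0.49 ± 0.23 and −0.73 ± 0.55, or −0.28 and −0.45 without HFD mouse 2. Genes of the mesothelium, the lining of the pad, had the lowest median of all lists, −0.58. Of these 12 genes 0 were one-sided, against 13.3% of all genes. The low median came from mouse 1 of each drug, at −1.75 for telmisartan and −0.60 for candesartan, against −0.19 and 0.18 in mouse 2. Without telmisartan mouse 1 the median was −0.22, in a range of −1.03 to −0.22 on leaving out 1 array.

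Ranked by p among the higher one-sided genes, the first 10 with a gene name were Abcd3, Cavin1, Gpr135, Nlgn2, Asrgl1, Upb1, Plbd1, Cd274, Gys1 and Fcf1. Abcd3, a fatty acid transporter of the peroxisome membrane, read 1346 and 1194 on HFD, 1854 and 1586 with telmisartan and 1818 and 1826 with candesartan. Chow stood at 1396 and 1259.6, so all 4 drug arrays exceeded both untreated groups, by 0.48 ± 0.12 against HFD (95% interval 0.22 to 0.74). Cavin1, a coat protein of caveolae and abundant in fat cells, read 2509 and 2579 on HFD, 3847 and 3161 with telmisartan, 3372 and 3237 with candesartan and 3229 and 3748 on chow. Its difference was 0.42 ± 0.11, though 0 of 2 dimmer probe sets were above. Cd274, which encodes the immune checkpoint ligand PD-L1, read 249.7 and 262, 319 and 332 and 382 and 333 in the same order, with 200.2 and 213 on chow. It was the one gene of the 10 with both chow arrays under both HFD arrays.

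Some of these genes had dropped with the diet. Gys1, glycogen synthase of muscle and fat, read 180.5 and 212 on HFD, 325 and 278 with telmisartan and 275 and 221 with candesartan, against 543 and 524 on chow. The diet step was −1.45 (adjusted p = 0.00235) and the drug difference 0.48 ± 0.15. The other probe set of Gys1 overlapped, with a drug difference of 0.14. Upb1, an enzyme of pyrimidine breakdown, read 25.1 and 24.7, 62.7 and 44.8 and 52.6 and 38.9, with 66.7 and 81.0 on chow. It had the larger difference, 0.98 ± 0.28, at a dim signal. Asrgl1, an asparaginase, read 214 and 261 on HFD, 378 and 327 with telmisartan and 309.8 and 303 with candesartan, against 457 and 496 on chow. Of its 3 other probe sets 1 was above. Because the drug and diet contrasts share the HFD arrays, a low HFD reading alone would move both. The largest differences were in dim genes: Itpka, an inositol trisphosphate kinase, by 1.22 ± 0.43, Sgsm3 by 1.05 ± 0.42 and Fcsk, fucose kinase, by 0.79 ± 0.26. For Itpka the HFD arrays themselves read 48.1 and 15.2, and without HFD mouse 2 the difference was 0.39. For Fcsk it was 0.44 without HFD mouse 2, and its other probe set differed in the opposite direction, by −0.78. Gpr135, an orphan receptor, Nlgn2, a synaptic adhesion protein, Plbd1 and Fcf1 differed by 0.80 ± 0.23, 0.66 ± 0.19, 0.34 ± 0.10 and 0.34 ± 0.11. The other probe sets of Gpr135 and Nlgn2 overlapped, with differences of 0.38 and −0.14.

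**Figure D5:**
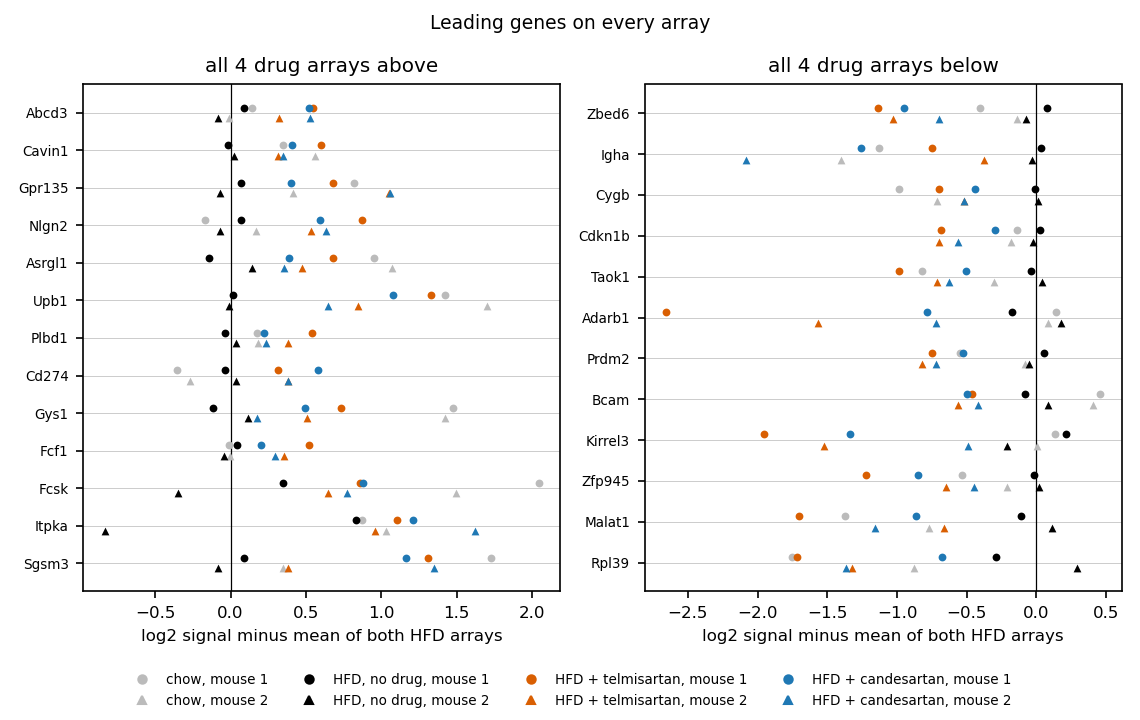
Log2 signal of the leading one-sided genes on each array relative to the mean of both HFD arrays, ordered by p on each side. Genes on the left have all 4 drug arrays above both HFD arrays and those on the right all 4 below; Adarb1, Kirrel3 and Igha spread most among the drug arrays.

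Among the lower genes the smallest p was that of Zbed6, a transcription factor that represses Igf2, which read 185 and 167 on HFD, 80.1 and 86.0 with telmisartan and 90.8 and 108 with candesartan. Chow stood at 133 and 159.5, and the difference was −0.95 ± 0.17 (95% interval −1.34 to −0.56, unadjusted p = 0.000417). Zbed6 lies within an intron of Zc3h11a, so signal from unspliced RNA of that gene cannot be told apart here. Igha, the constant region of immunoglobulin A, read 1025 and 978 on HFD, 594 and 770.2 with telmisartan and 419 and 237 with candesartan. The candesartan arrays were the lower pair and reached the chow level of 457 and 378. Pooled, the difference was −1.12 ± 0.22, 2 of 2 other probe sets were below, and the step up with the diet was 1.27 (adjusted p = 0.023). Immunoglobulin constant regions resemble each other, so part of the signal may come from related genes. Of 8 B cell markers, Blk alone was below on all drug arrays (12.5%, against 6.42% of all genes), and 0 were with quantile normalization. Jchain, the joining chain of secreted immunoglobulin A and M, overlapped fully, at 3021 and 2031 on HFD, 1539 and 5816 with telmisartan and 4050.0 and 985 with candesartan.

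Malat1, an abundant nuclear long noncoding RNA, was the brightest of the 11 one-sided genes that differed by over 2-fold. Its signals were 6815 and 7963 on HFD, 2261 and 4663 with telmisartan, 4043 and 3307 with candesartan and 2840.5 and 4327 on chow. The difference was −1.10 ± 0.28, and 4 of 6 other probe sets were below on all drug arrays. Cygb, cytoglobin, which marks fibroblast-like stromal cells, read 1581 and 1603 on HFD, 981 and 1109 with telmisartan and 1172 and 1113 with candesartan. It stood at 806 and 971 on chow, and its rise with the diet passed the test (0.85, adjusted p = 0.00943), while the drug difference was −0.55 ± 0.12. Cdkn1b, the cell cycle inhibitor p27, read 454 and 439, 278 and 275 and 363 and 303, with 406 and 394 on chow. In this gene the drug arrays lay below both untreated groups. Bcam, a laminin receptor, did the same at 372 and 419 on HFD, 286 and 268 with telmisartan and 280.3 and 296 with candesartan, with 542 and 523 on chow.

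The remaining lower genes were the kinase Taok1 (−0.71 ± 0.16, with 1 of 5 other probe sets below), the histone methyltransferase gene Prdm2 (−0.70 ± 0.16), the zinc finger gene Zfp945 (−0.79 ± 0.20), the RNA-editing enzyme Adarb1 (−1.43 ± 0.32), the adhesion protein Kirrel3 (−1.33 ± 0.33) and ribosomal protein Rpl39 (−1.27 ± 0.37). Adarb1 read 81.7 and 105 on HFD, 14.7 and 31.2 with telmisartan and 53.7 and 56.2 with candesartan. The other probe sets of Adarb1 and Prdm2 overlapped, with differences of −0.25 and −0.18, and that of Zfp945 was below. All 3 of the largest differences here were in dim genes. Rpl39 has near-identical copies in the genome, so its reading is uncertain. On the other side, of 22 genes of the unfolded protein response Dnajb9 alone was above (4.55%, against 6.91% of all genes), and 0 were below. The number above was 1 with quantile normalization, 5 with median centring and 0 with unscaled signals. Dnajb9, an endoplasmic reticulum chaperone, read 1833 and 1614 on HFD, 2401 and 2257 with telmisartan and 1941 and 2002 with candesartan. Gpx4, which removes lipid peroxides, read 8515 and 8981, 11727 and 9502 and 9555 and 9625, and its other probe set was above too.

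The stated dose by weight and the duration were equal for both drugs. Intake and the degree of receptor blockade are not given in the labels, so whether these were equal is not known. In the limma test of telmisartan against candesartan 0 of 11232 genes (0%) were called, with a smallest adjusted p of 0.484 and 550 genes at an unadjusted p under 0.05. For the median gene the 95% interval of that difference, before adjustment, spanned 0.44 on the log2 scale either way. Differences well above that can stay uncalled after adjustment, as for Igha and Adarb1 below. Against HFD, telmisartan gave 696 genes and candesartan 140 at an unadjusted p under 0.05, with 0 called for either. For Abcd3 the difference from HFD was 0.44 with telmisartan and 0.52 with candesartan, for Zbed6 −1.08 and −0.83, and for Malat1 −1.18 and −1.01. The telmisartan minus candesartan interval was −0.39 to 0.22 for Abcd3, −0.71 to 0.19 for Zbed6 and −0.90 to 0.56 for Malat1. For Igha, at −0.57 and −1.67, it was 0.51 to 1.69, and for Adarb1, at −2.11 and −0.75, −2.20 to −0.51. The adjusted p of the difference between the drugs was 0.924 for both Igha and Adarb1.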

How the data were processed

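RNA of 8 fat pads was hybridized to 1-colour Affymetrix arrays. The deposited values are linear signal intensities of probe sets, which the authors derived from the scans with GeneChip Analysis Suite, per the labels' series text. Which summary algorithm and target scaling they used is not stated there. Presence calls were not used.

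Of 45101 probe sets, 64 were controls, 9160 had no entry in the annotation, 932 had several gene symbols and 34958 had 1. Gene identifiers of 34754 were found in the updated table, which changed 0 symbols. Arrays were scaled to one 2%-trimmed mean, values under the 20th percentile were raised to it (6.69), and logarithms to base 2 taken. Probe sets in the upper 50% by mean were kept (22519) and the brightest of each gene used, which left 11232 genes, 12 of them with an array at the floor. Limma 3.58.1 (R 4.3.3) fitted 4 group means to the 8 arrays, with an intensity trend, 4 residual and 4.55 prior degrees of freedom, two-sided tests and Benjamini-Hochberg adjustment over all genes. The script was tested on simulated data with differences larger than any seen here. That test does not show how well smaller differences would be found. The number of arrays limits the precision.

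Named genes were taken by a rule. It gives the 10 genes above and the 10 below with the smallest p, and up to 5 each with the largest difference at an unadjusted p under 0.05. It adds the one-sided member with the smallest p of each list, and 13 genes always. Other genes in the text are members of the lists. They, and Mrpl3, Rims4, Prr13 and Lrrc45 at the boundary, were picked after their values were seen. The 35 gene lists and the comparison itself were chosen with earlier results of these data known. No list was tested.

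The labels number the mice 1 and 2 in each group, and no source pairs them. Alternative settings were other scalings, floors, filters and probe set rules, other variance models and sample sets, a replicate block, and leaving out each array. Figures were drawn with Python 3.11.15 and matplotlib 3.10.9.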

Additional observations from a re-analysis of the deposited data

Results flagged for a closer look

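In 59 genes and 31 list medians, the 4 drug arrays were checked for an array far from the other 3. Independent values would give such a gap in about 1 of 20 groups. That rate need not hold for genes picked as one-sided or for lists that share members. The measure is the gap to the nearest other array divided by the whole range. For telmisartan mouse 1 it was 0.938 for Fabp5, 0.835 for Thbs2, 0.849 for Tpx2, 0.939 for Gpx4, 0.893 for the median of the lipid synthesis genes and 0.948 for that of the mast cell genes. Abcd3 was set apart by telmisartan mouse 2, at 0.875, where that mouse was the lowest of the drug arrays and still above HFD.

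In brown and beige fat genes the drugs lay on opposite sides of HFD. The mean of both telmisartan arrays' medians less that of both candesartan arrays' was −0.58 on the log2 scale, with both telmisartan mice below HFD and both candesartan mice above. This difference was not tested. It rests on 7 tested genes, of which Cox8b and Cox7a1 were above HFD on all drug arrays (28.6%, against 6.91% of all genes).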

How the results depend on the processing

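Under limma, 0 genes were called for drug against HFD in every setting except no filter on dim probe sets, which called 1, Pate14, close to the floor on all arrays (named after its values were seen). Telmisartan against candesartan gave 0 calls except 6 without the filter, all near the floor, and 1 with unscaled signals (Cd163l1). The counts of one-sided genes moved more: 1172 above and 425 below with median centring, 36 above with unscaled signals, 1142 below with no filter, 474 below with a filter at the 70th percentile and 1788 below with every probe set on its own. Leaving out 1 array gave 776 to 2024 above and 721 to 2138 below, since fewer arrays then have to agree. Without HFD mouse 1 the counts were 2024 and 2138, without HFD mouse 2 1710 and 1544, without telmisartan mouse 2 1369 and 1228, and without candesartan mouse 2 1360 and 1304.

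No paired design is stated, and the differences between mouse 1 and mouse 2 correlated at −0.041 to 0.21 between groups. With the replicate block 0 genes were called for either contrast, and 484 had an unadjusted p under 0.05 for drug against HFD, against 301 without it.

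Signs turned for Mrc1 (−0.046 with quantile normalization, −0.090 unscaled), Lep (−0.055 and −0.058), Adipoq (−0.044 unscaled) and Dgat1 (−0.090 as a mean of its probe sets). Leaving out 1 array gave −0.59 to 0.022 for Ace, −0.33 to 0.18 for Adgre1, −0.23 to 0.25 for Mrc1, −0.032 to 0.94 for Cd163 and −0.051 to 0.14 for Lep. The cause was not tested. Among values of single named genes under the alternatives, 1271 kept their direction and call and 15 did not. Much of this count was fixed in advance and does not measure stability. Genes picked as one-sided cannot turn sign when an array is left out, and other variance models leave the differences unchanged. On leaving out 1 array, the number of genes at an unadjusted p under 0.05 ranged from 86 without HFD mouse 2 to 1414 without telmisartan mouse 2, against 301 with all arrays.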

Other observations

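The medians of immune gene lists outside the macrophage lists differed between both mice of a drug. Genes induced by interferon had a median against HFD of 0.72 in telmisartan mouse 2 and −0.26 in telmisartan mouse 1, with −0.011 and −0.014 under candesartan. The MHC class II genes, which present antigen, stood at 0.69 in telmisartan mouse 2 and between −0.13 and 0.11 in the other 3 drug-treated mice. None of the 19 and 8 genes was one-sided, against 13.3% of all genes. For T and NK cell genes the candesartan mice lay at 0.22 and −0.43, and for B cell genes at 0.16 and −0.70. Complement factor B (Cfb) was the one complement gene of 11 above on all drug arrays (9.09%, against 6.91% of all genes, with 0 unscaled), at 2313 and 2141 on HFD, 3041 and 2845 with telmisartan and 2373 and 2582 with candesartan.

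Of 22 antioxidant genes, Gpx4, Prdx3 and Gpx1 were above (13.6%, against 6.91% of all genes) and Gclc and Txnrd1 below (9.09%, against 6.42%). These counts depended on scaling, at 1 above and 2 below with quantile normalization, 3 and 0 with median centring and 0 and 0 with unscaled signals. Prdx3, the peroxiredoxin of mitochondria, read 1997 and 1780.2 on HFD, 2609 and 2018 with telmisartan and 2193 and 2321 with candesartan. Gclc, the first enzyme of glutathione synthesis, read 318 and 311, 259 and 240.1 and 299.7 and 294. Of 17 genes of branched-chain amino acid breakdown, 5 were called lower on HFD than on chow. This list had 0 one-sided members, against 13.3% of all genes, and a median of 0.044 under the drugs. That median was −0.032 without telmisartan mouse 1 and 0.16 without telmisartan mouse 2. Of 24 proliferation genes, Tpx2 and Plk1 were below (8.33%, near the 6.42% of all genes), and 0 were below with quantile normalization or unscaled signals.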
